A study of Mus musculus with 6 samples.

Results

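Matrix metalloproteases (MMPs), the related ADAM and ADAMTS proteases and the tissue inhibitors of metalloproteases (TIMPs) were examined in 3T3-L1 adipocytes that expressed uncoupling protein 1 (UCP1). Probes were taken where the platform annotation gave exactly 1 gene symbol that began with Mmp, Adam or Adamts and a number or letter of those families, or was Timp1 to Timp4. These were 85 of 36227 probes and 69 of 18069 genes, made up of 21 MMP, 4 TIMP, 26 ADAM, 14 ADAMTS and 4 ADAMTS-like genes. Mmp16 had no value on any array, which left 68 genes. Where a gene had several probes, the brightest by mean log2 stood for it.

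3T3-L1 is a mouse preadipocyte line that turns into fat-storing cells under an adipogenic mixture. The UCP1 group held 3 arrays of adipocytes expressing UCP1, and the control group held 3 arrays of adipocytes that carried the Tet-off plasmid alone. All cells were differentiated in the same way and harvested 10 days later, and total RNA was hybridised to 1-colour CodeLink mouse arrays. The titles of the UCP1 arrays differ in the digit after UCP, which could be read as a protein's name, but the source field names uncoupling protein 1 for all 3. The labels do not say whether a group was 1 clone or several, or whether its arrays came from separate cultures. The p-values therefore rest on array-to-array spread that may be purely technical.

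MMPs are zinc-dependent endopeptidases that cut collagens, laminins and other matrix proteins, and most are made as inactive precursors. TIMPs bind their active sites. ADAMs are membrane proteins, some of which shed growth factors and receptors from the cell surface while others lack a working active site, and ADAMTS enzymes are secreted and cut proteoglycans and procollagens. Adipocytes remodel the matrix around them as they fill with lipid, and MMP2 and MMP14 are among the enzymes known to act in fat tissue.

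Some members are introduced with promoter sequence where a reference entry existed. Mmp2, which rose, had no entry, so Timp4 is the only called member whose promoter is shown. Of the 68 genes, 42 had 47 entries in the RefSeq promoter table (build GRCm38.p6), of which the 250 bases before the start are used here. The 4 TIMP promoters are shown because a single member of that family rose. Capitals mark the GC box letters GGGCGG, searched on both strands, so that CCGCCC is the same motif read from the other side.
Timp4, chr6:115252206-115252455, minus strand: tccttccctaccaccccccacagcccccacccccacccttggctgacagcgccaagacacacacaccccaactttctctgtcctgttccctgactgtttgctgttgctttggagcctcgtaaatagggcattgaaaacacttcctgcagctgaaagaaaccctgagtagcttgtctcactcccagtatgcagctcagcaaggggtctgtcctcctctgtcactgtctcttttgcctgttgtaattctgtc
Timp1, chrX:20869916-20870165, plus strand: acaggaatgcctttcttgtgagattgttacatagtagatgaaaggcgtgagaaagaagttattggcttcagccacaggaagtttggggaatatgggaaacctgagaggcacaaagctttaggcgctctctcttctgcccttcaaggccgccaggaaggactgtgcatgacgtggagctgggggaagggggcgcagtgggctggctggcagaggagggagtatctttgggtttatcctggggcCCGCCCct
Timp2, chr11:118355412-118355661, minus strand: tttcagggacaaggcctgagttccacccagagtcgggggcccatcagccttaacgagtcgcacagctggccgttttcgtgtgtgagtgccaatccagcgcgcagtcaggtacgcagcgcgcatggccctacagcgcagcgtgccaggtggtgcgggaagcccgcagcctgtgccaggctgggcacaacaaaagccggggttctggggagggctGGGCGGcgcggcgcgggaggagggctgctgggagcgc
Timp3, chr10:86300162-86300411, plus strand: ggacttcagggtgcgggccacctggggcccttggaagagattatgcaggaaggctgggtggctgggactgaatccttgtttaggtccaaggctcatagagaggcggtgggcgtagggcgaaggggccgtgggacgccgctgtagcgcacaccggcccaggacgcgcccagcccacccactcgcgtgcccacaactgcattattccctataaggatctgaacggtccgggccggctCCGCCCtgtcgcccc
The GC box letters stood 8 bases before the start in Timp1, 37 in Timp2 and 15 in Timp3, counted to the first base of the motif. In Timp4 none of the 4 motifs searched on both strands was present in this window. These were the GC box, the letters TGANTCA bound by AP-1, the TATA box letters TATAAA, and the letters TTGCNNAA bound by C/EBP factors. The Timp4 window held 2 CpG dinucleotides, against 6 in Timp1, 21 in Timp2 and 18 in Timp3, and all promoters had a median of 6. GC boxes occurred in 32.7% of all 32851 promoter windows and in 42.6% of the 47 of the members. A match to these letters is a description and not a binding site.

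Readings are spot intensities on a linear scale, on which each array has a median near 1. In the fit over all probes (limma with an intensity trend, two-sided, Benjamini-Hochberg adjustment over 36116 probes, threshold 0.05), 2 of the 68 genes rose and 0 fell. Among all 18014 genes measured the same way 1.13% rose and 2.92% fell (4.05% in either direction), and of all probes 0.8% rose and 2.03% fell (2.83%). At an unadjusted p under 0.05 in the same limma fit, 7 of the 68 were higher and 2 lower (13.2% in all), against 5.73% and 15.1% of all genes (20.8% in all). After quantile or cyclic loess normalization these numbers were 14 and 2. Calls over all genes shifted upward as well, from 203 higher and 526 lower to 409 and 309 after quantile normalization and 377 and 327 after cyclic loess (limma). In the deposited scaling 17.6% of members at or above the median probe had an unadjusted p under 0.05, against 28.7% of all genes that bright. Below it the shares were 8.82% and 9.01%. The members had a median log2 difference of 0.08, against -0.08 over all genes, and 39 of 68 lay above 0. Of all genes 39.9% lay above 0. After quantile normalization 42 members lay above 0 and after cyclic loess normalization 41, with member medians of 0.12 and 0.11. The median over all genes rose as well, to 0.009 and -0.003. Without control 2, in the deposited scaling, 35 members lay above 0 and 33 below, with a member median of 0.002.

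Arrays correlated at r = 0.985 to 0.992 within UCP1, 0.993 to 0.995 within the control and 0.976 to 0.988 between groups, over log2 values of the brighter probes. The 99th percentile of intensity was 185 to 225 on the UCP1 arrays and 255 to 279 on the control arrays. In the deposited scaling 289 probes rose and 732 fell, against 567 and 446 after quantile normalization and 517 and 460 after cyclic loess (limma). Ucp1 itself read 2.34, 2.02 and 1.54 on the UCP1 arrays, against 0.222, 0.232 and 0.278 on the control arrays. Of 8 adipocyte markers 5 were measured (Fabp4, Adipoq, Lpl, Cidec, Retn), and their summed intensity was 2673 to 3717 in UCP1 and 3252 to 3741 in control cells, with 0 called (limma; 0 also at an unadjusted p under 0.05). All 7 endothelial markers measured read below the median probe.

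Timp4, an inhibitor abundant in fat and heart that binds MMP2, had the larger estimated rise of the pair. It read 23.1, 28.8 and 24.3 on the UCP1 arrays, against 15.7, 13.5 and 12.6 on the control arrays. Every UCP1 array lay above every control array. Timp4 averaged 25.4 ± 3.00 in UCP1 and 13.9 ± 1.63 in control cells (SD, n = 3 each), a 1.82-fold rise, or 0.86 ± 0.129 in log2 units (SE, limma, adjusted p = 0.0066). It passed in 13 of 14 alternative settings, with log2 differences from 0.77 to 1.00, and missed only without the intensity trend (limma, adjusted p = 0.221).

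The other TIMPs did not pass. Timp1, a secreted inhibitor induced by many cytokines, read 7.56, 6.68 and 7.50 in UCP1 and 9.26, 7.09 and 7.80 in control cells, with overlapping groups and a log2 difference of -0.14 ± 0.126 (SE). Timp2, which both inhibits MMP2 and helps MMP14 activate it, read 14.1, 11.6 and 11.2 in UCP1 and 12.1, 10.8 and 9.97 in control cells, a log2 difference of 0.16 ± 0.126 (SE). Its dimmer second probe pointed the same way, at 0.43. Timp3, which stays bound to the matrix and also inhibits ADAM17, read 3.85, 2.51 and 3.39 in UCP1 and 3.49, 2.67 and 2.91 in control cells, a log2 difference of 0.09 ± 0.171 (SE). The 95% intervals of these 3 differences ended at 0.13, 0.44 and 0.46, below the 0.58 at which that of Timp4 began. Within arrays, the log2 reading of Timp4 minus the mean of the other 3 averaged 1.94 ± 0.341 in UCP1 and 1.12 ± 0.0762 in control cells (SD, n = 3 each), with every UCP1 array above every control array. This contrast was chosen after the values were seen. The exact two-sided permutation test gave p = 0.1, and 0.1 adjusted over 3 such contrasts, the smallest that 3 against 3 arrays allow.

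Timp1, Timp3 and Timp4 lie inside the synapsin genes Syn1, Syn3 and Syn2 in the gene order of GRCm38.p6, an arrangement conserved in other animals. The synapsins, vesicle proteins of nerve terminals, were added after the members' values were seen. Syn2, which spans Timp4, went the other way: it read 12.8, 12.9 and 12.7 in UCP1 and 21.0, 20.3 and 18.5 in control cells, and fell by 0.64 ± 0.107 in log2 units (SE, limma, adjusted p = 0.0107). Its second probe fell too, by 0.83 (limma, adjusted p = 0.0186). The call of the brighter probe was lost without UCP1 3, control 1 or control 2, where it fell by 0.63, 0.60 and 0.62. Syn1 and Syn3 were dim and did not pass, with log2 differences of -0.84 and -1.45 (limma, adjusted p = 0.173 and 0.237), and in Syn1 every UCP1 array was the lower.

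**Figure D1:**
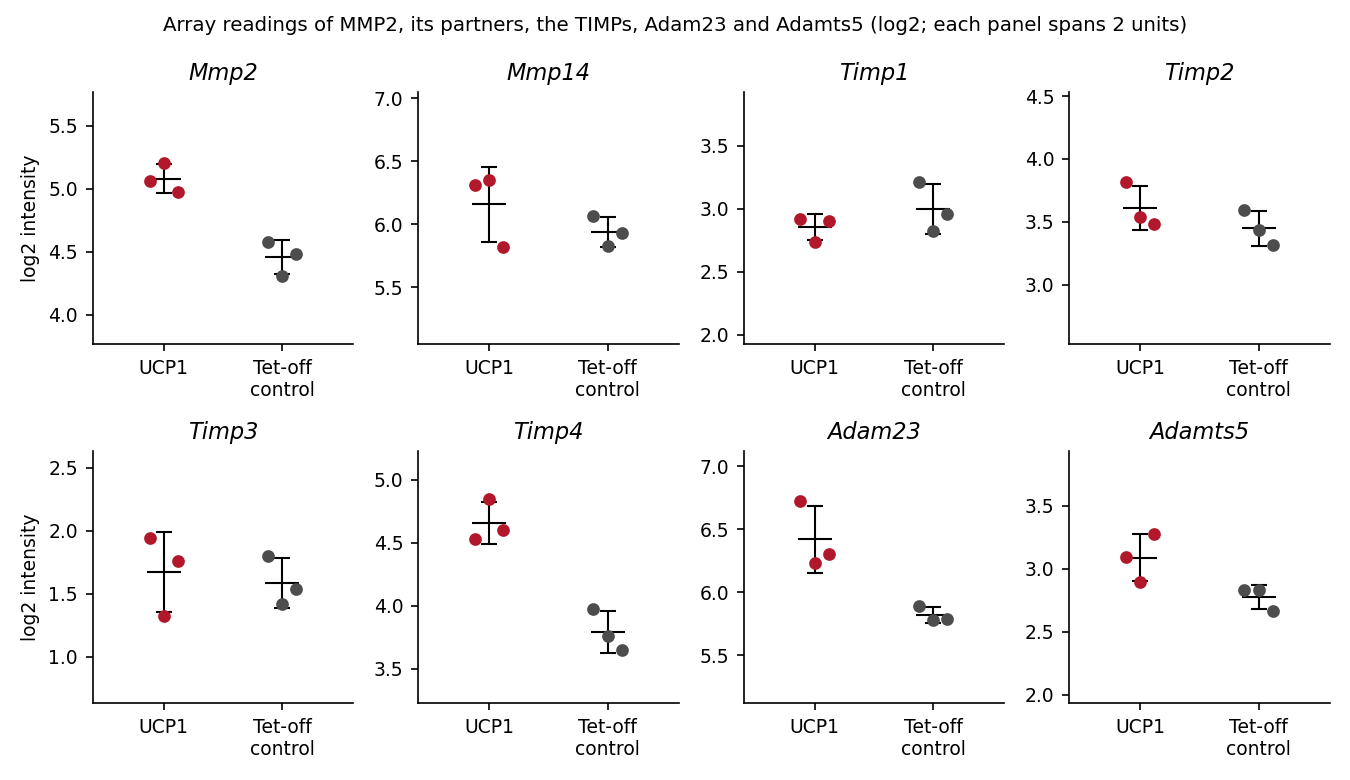
Log2 intensity (vertical axis) of 8 genes on the 3 UCP1 arrays (red, left) and the 3 Tet-off control arrays (grey, right), with group means and SD bars; every panel spans the same height on the log2 scale. The groups are apart in Mmp2, Timp4, Adam23 and Adamts5, of which Mmp2 and Timp4 passed the threshold, and overlap in Mmp14, Timp1, Timp2 and Timp3.

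Mmp2, or gelatinase A, which cuts denatured collagen and the type IV collagen of basement membranes, was the protease that rose. It read 33.5, 36.8 and 31.5 on the UCP1 arrays, against 23.9, 19.8 and 22.3 on the control arrays. The groups did not overlap. It averaged 33.9 ± 2.70 in UCP1 and 22.0 ± 2.03 in control cells (SD, n = 3 each), 1.54-fold, or 0.63 ± 0.121 in log2 units (SE, limma, adjusted p = 0.0216). That call was lost without UCP1 3, control 1, control 2 or control 3, where the log2 difference was 0.68, 0.69, 0.55 and 0.64. It was also lost without the intensity trend (limma, adjusted p = 0.242). The direction of Mmp2 held in all 14 alternative settings. As its groups did not overlap, only quantile and cyclic loess normalization could have turned it. The estimated rise of Mmp2 was the smaller of the pair, but the 95% intervals overlapped (0.36 to 0.89, against 0.58 to 1.15 for Timp4). The within-array log2 reading of Mmp2 minus Timp4 was 0.54, 0.36 and 0.37 in UCP1 and 0.60, 0.55 and 0.83 in control cells. The difference was -0.24 (exact permutation p = 0.1, the smallest possible). This contrast was also chosen after the values were seen, so the order of the 2 rises is not settled.

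Cell type markers are set beside all genes, of which 1.13% rose and 2.92% fell (limma). Those of undifferentiated preadipocytes or fibroblasts did not all move the same way. Of 8 such markers 7 were measured and 2 rose, Pdgfra by 0.67 and Thy1 by 0.80 in log2 units (limma, adjusted p = 0.0484 and 0.0319). The call of Pdgfra was lost with UCP1 3 or any 1 control array left out, with values from 0.61 to 0.76, and with the mean of its probes (0.41, limma, adjusted p = 0.295). That of Thy1 was lost without UCP1 3, control 2 or control 3, at 0.88, 0.65 and 0.80. The summed intensity of the 7 was 682 to 884 in UCP1 and 665 to 896 in control cells, and Cd34 was the member that read below the median probe. That sum weighs most on the brightest marker, which had a mean log2 reading of 9.24. The median log2 difference of the list was 0.34, against -0.08 over all genes. Of the 7 markers, 4 lay above 0 and 3 below, the lowest at -0.29. Of 5 smooth muscle or myofibroblast markers 2 fell, Acta2 by 1.39 and Myh11 by 0.71 (limma, adjusted p = 0.000149 and 0.0278), and the list summed to 21.9 to 25.4 in UCP1 and 39.5 to 42.4 in control cells. The call of Myh11 was lost with UCP1 3 or any 1 control array left out, with values from -0.73 to -0.66. Of 6 measured macrophage markers 1 rose, Lyz2 by 1.48 (limma, adjusted p = 0.00571), while Adgre1, Ptprc, Itgam and Mrc1 read below the median probe and the sum was 14.2 to 15.1 in UCP1 and 11.2 to 16.8 in control cells. Of 5 measured chondrocyte or bone markers 2 fell, Ibsp by 2.26 and Alpl by 0.98 (limma, adjusted p = 0.000449 and 0.0159), and the sum was 4.42 to 5.43 in UCP1 and 7.94 to 8.69 in control cells, with Col2a1 and Sox9 below the median probe. The call of Alpl was lost without UCP1 3, control 1 or control 3, at -1.06, -0.90 and -0.87. The part of these cell types in the rise of Mmp2 and Timp4 was not tested. In RNA from whole cultures, more cells of a type and more RNA per cell cannot be told apart.

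Mmp14, the membrane-anchored enzyme that activates pro-MMP2 and cuts fibrillar collagen, was bright in both groups. It read 79.3, 81.5 and 56.4 in UCP1 and 67.0, 56.8 and 61.1 in control cells. UCP1 3 lay below every control array and the other UCP1 arrays above them, and the log2 difference of 0.22 ± 0.161 (SE) did not pass (limma, adjusted p = 0.549, 95% interval -0.14 to 0.57).

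The 6 remaining MMPs at or above the median probe did not pass. Mmp25, anchored to membranes by a lipid tail, read 17.6, 15.8 and 16.9 in UCP1 and 21.5, 19.7 and 18.1 in control cells. Mmp21, known from left-right patterning of embryos, read 1.49, 1.20 and 1.30 in UCP1 and 1.69, 1.54 and 1.67 in control cells. In these the UCP1 arrays all lay below the controls, by 0.24 and 0.30 in log2 units (limma, adjusted p = 0.323 and 0.362). That was 25% of the 8 MMPs at or above the median probe, near the 23.7% of all genes that bright. Mmp11, or stromelysin 3, read 14.8, 15.2 and 15.1 in UCP1 and 14.4, 14.7 and 24.4 in control cells, where control 3 stood high. Its log2 difference of -0.20 became 0.05 without control 3. Mmp23, a small membrane-bound member, read 7.36, 8.58 and 8.16 in UCP1 and 10.9, 10.4 and 7.24 in control cells. Mmp19 read 3.89, 4.70 and 4.11 in UCP1 and 4.46, 3.93 and 4.17 in control cells. Mmp3, or stromelysin 1, read 3.00, 5.23 and 4.20 in UCP1 and 4.32, 3.33 and 3.08 in control cells. The groups overlapped in these last 3 as well.

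Of the 12 MMPs below the median probe 0 passed (limma). At an unadjusted p under 0.05 there was 1 (8.33%), near the 9.01% of all genes below the median probe. Mmp17, another lipid-anchored MMP, read 0.748, 0.908 and 1.04 in UCP1 and 0.544, 0.173 and 0.646 in control cells, a log2 difference of 1.18 ± 0.419 (SE, limma, adjusted p = 0.163), while its other probe lay at -0.21. Mmp9, or gelatinase B, read 0.0835, 0.554 and 0.273 in UCP1 and 0.566, 0.556 and 0.448 in control cells (limma, adjusted p = 0.326). Differences among these 12 ran from -1.45 (Mmp1a) to 1.18 on the log2 scale, and the spread between arrays was wide at this brightness.

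Of the 20 measured MMPs, 9 belong to a run of 10 Mmp genes that follow each other on chromosome 9 with no other protein-coding gene between them in GRCm38.p6; Mmp27 of that run was not analysed here. The 100 bases before the start are shown for 4 of them because these promoters share a layout. Capitals mark the AP-1 and TATA box letters spelled out above for the TIMP promoters.
Mmp3, chr9:7445722-7445821, plus strand: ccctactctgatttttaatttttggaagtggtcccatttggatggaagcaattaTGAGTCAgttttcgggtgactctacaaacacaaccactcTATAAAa
Mmp10, chr9:7502242-7502341, plus strand: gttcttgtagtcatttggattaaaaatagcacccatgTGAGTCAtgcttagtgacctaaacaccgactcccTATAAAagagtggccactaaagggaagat
Mmp13, chr9:7272414-7272513, plus strand: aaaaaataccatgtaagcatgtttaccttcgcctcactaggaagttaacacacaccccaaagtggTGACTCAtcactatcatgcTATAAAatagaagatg
Mmp1a, chr9:7464041-7464140, plus strand: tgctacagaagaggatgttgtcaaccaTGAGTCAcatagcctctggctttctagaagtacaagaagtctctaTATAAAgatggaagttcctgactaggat
Both motifs occurred within 100 bases of the start in 7 of the 11 entries of the run (63.6%), covering 7 of 9 genes. In the same 100 bases the pair was present in 0 of the 36 entries of the other members and in 0.234% of all promoters. Over 250 bases Adam29, outside the run, also held both. The run's windows held a median of 1 CpG in 250 bases, against 14.5 in the other members' windows. Of the 9 measured genes 8 read below the median probe, and Mmp3 was the exception. A probe's brightness also depends on the probe, so these readings do not rank transcripts. None of the 9 passed (limma; 0 at an unadjusted p under 0.05, which 9.01% of all genes below the median probe reached). Mmp1a, a collagenase, had all UCP1 readings below the controls, at 0.0395, 0.188 and 0.0981 in UCP1 and 0.285, 0.210 and 0.249 in control cells (limma, adjusted p = 0.358). The 8 others overlapped between groups. Of all genes below the median probe 7.31% had every UCP1 array lower and 6.8% every UCP1 array higher, so 1 such gene among 9 does not set the run apart.

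**Figure D2:**
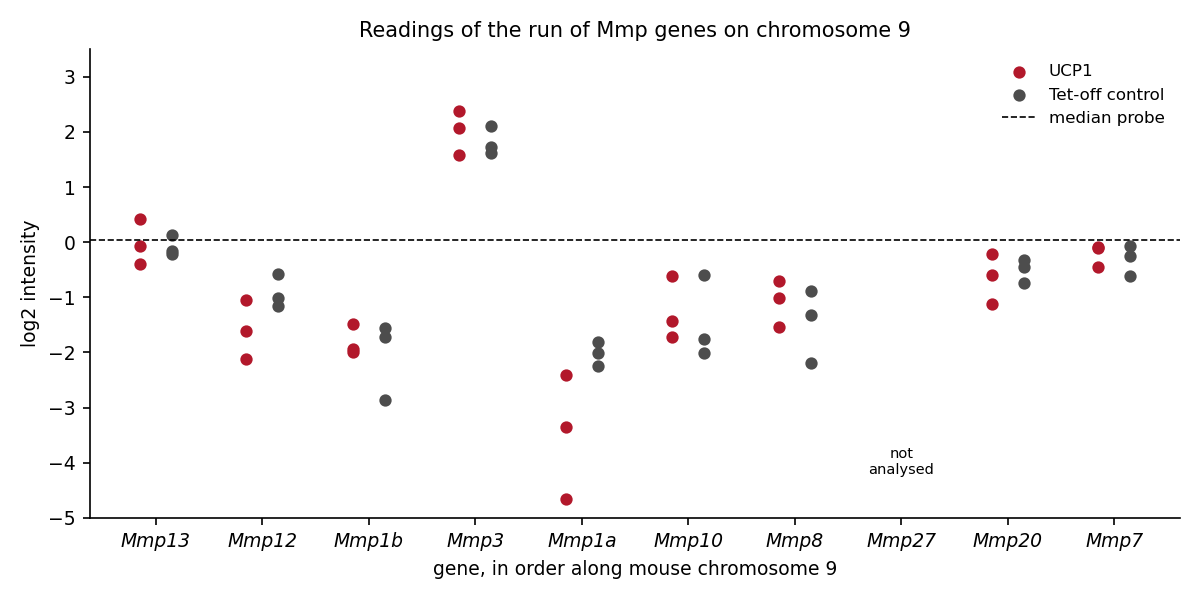
Log2 intensity (vertical axis) of the Mmp genes that lie side by side on chromosome 9 (horizontal axis, in chromosome order), with UCP1 arrays in red on the left and Tet-off control arrays in grey on the right of each position; the dashed line is the median probe. Mmp3 lies above the line on all 6 arrays, and in Mmp1a alone the groups do not overlap.

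Among the ADAMs 0 of 26 passed (limma), with 4 (15.4%) at an unadjusted p under 0.05, against 20.8% of all genes. That share depends on brightness. At or above the median probe 2 of 10 ADAMs reached that p (20%), against 28.7% of all genes. Below it 2 of 16 did (12.5%), against 9.01%. The ADAM nearest the threshold was Adam23, a member without a working protease site that acts in cell adhesion. Its promoter, rich in CpG (27 in 250 bases), is shown with no capitals because none of the 4 motifs was found in it.
Adam23, chr1:63445641-63445890, plus strand: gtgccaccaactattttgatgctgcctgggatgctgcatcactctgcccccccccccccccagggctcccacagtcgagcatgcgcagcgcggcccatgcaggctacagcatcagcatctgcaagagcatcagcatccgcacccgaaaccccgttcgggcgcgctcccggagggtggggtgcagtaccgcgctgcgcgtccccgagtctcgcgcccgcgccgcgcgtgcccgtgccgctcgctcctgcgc
Adam23 read 106, 75.1 and 78.9 on the UCP1 arrays, against 59.2, 54.9 and 55.1 on the control arrays. Every UCP1 array was above every control array, and UCP1 1 was highest. The log2 difference was 0.60 ± 0.152 (SE), 1.52-fold (limma, adjusted p = 0.0586). Its second probe read 19.4, 16.2 and 15.9 in UCP1 and 13.6, 12.5 and 11.4 in control cells, a log2 difference of 0.46 ± 0.122 (SE, limma, adjusted p = 0.0691). Adam23 passed in 7 of 14 alternative settings, among them quantile normalization (0.82, limma, adjusted p = 0.00305) and without UCP1 1 (0.45, adjusted p = 0.0358) or UCP1 2 (0.70, adjusted p = 0.0275).

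The sheddases did not pass. Adam10, which cuts Notch, read 53.7, 32.7 and 38.4 in UCP1 and 40.4, 38.1 and 39.6 in control cells. UCP1 1 stood above and UCP1 2 below all controls, and the log2 difference was 0.05 ± 0.166 (SE). The 2 dimmer probes of Adam10 lay at -0.36 and -0.67, so its probes disagreed. Adam17, which releases TNF and ligands of the EGF receptor, was dim, at 0.661, 0.581 and 0.671 in UCP1 and 1.57, 0.880 and 0.786 in control cells. All UCP1 readings were the lower ones, with a log2 difference of -0.69 ± 0.261 (SE, limma, adjusted p = 0.191).

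Other ADAMs with known proteolytic activity stayed within the spread of the arrays. Adam15 read 61.2, 53.3 and 48.0 in UCP1 and 60.1, 58.7 and 56.7 in control cells, a log2 difference of -0.12 that turned to 0.07 after quantile and cyclic loess normalization. Adam19 read 19.2, 17.9 and 16.8 in UCP1 and 16.3, 17.4 and 15.8 in control cells. Adam12, which in mice has been tied to fat cell formation, read 3.31, 4.63 and 3.68 in UCP1 and 4.52, 5.34 and 4.30 in control cells (log2 difference -0.29, limma, adjusted p = 0.351). In each of these the groups overlapped. Adam8, a leukocyte member, read 0.915, 0.984 and 0.879 in UCP1 and 0.980, 1.11 and 1.35 in control cells, a log2 difference of -0.30. Adam33 read 1.49, 1.32 and 1.70 in UCP1 and 1.14, 1.41 and 1.18 in control cells, a difference of 0.27, with its dimmer probe at -0.41. Neither passed.

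Several ADAMs known from the male reproductive tract also gave readings, with Adam1a, Adam18 and Adam32 above the median probe and Adam7 below it. Adam1a read 1.92, 2.43 and 2.07 in UCP1 and 1.34, 1.61 and 1.97 in control cells (log2 difference 0.39, limma, adjusted p = 0.265). Adam18 read 4.76, 4.0 and 5.25 in UCP1 and 4.07, 3.60 and 3.78 in control cells (0.28, adjusted p = 0.298, limma). Adam32 read 4.84, 4.51 and 3.90 in UCP1 and 3.58, 4.27 and 3.59 in control cells (0.21, adjusted p = 0.471, limma). The groups of these 3 overlapped. Adam7, an epididymal member, read 1.21, 1.21 and 1.15 in UCP1 and 0.772, 0.792 and 0.994 in control cells, with all UCP1 readings higher and a log2 difference of 0.49 ± 0.181 (SE, limma, adjusted p = 0.178). The 16 ADAMs below the median probe, Adam7 and Adam17 among them, ranged from -1.20 to 1.27 on the log2 scale.

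**Figure D3:**
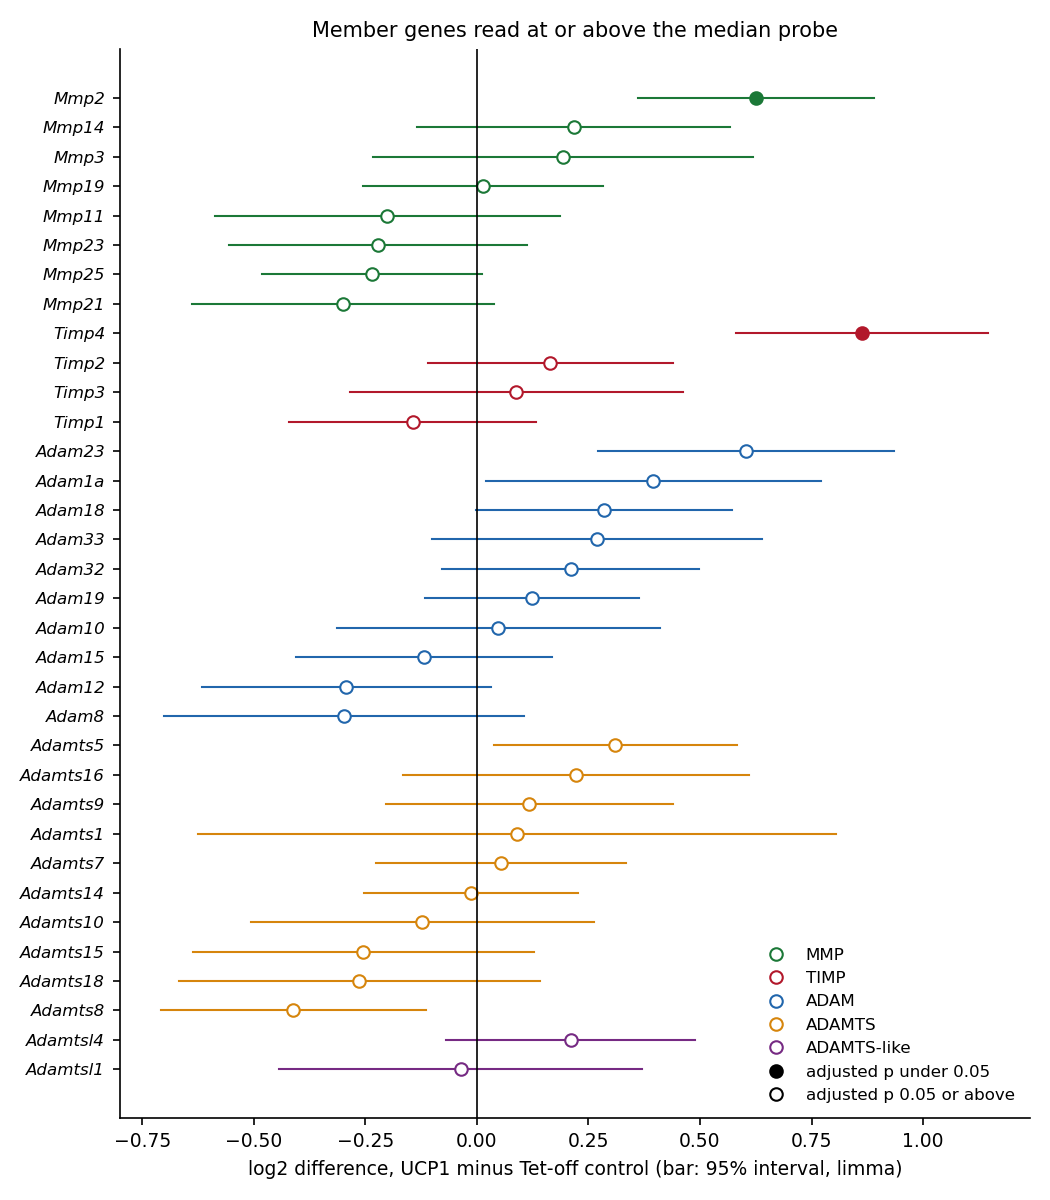
Log2 difference of UCP1 minus Tet-off control (horizontal axis) for the 34 member genes read at or above the median probe, coloured by class, with 95% intervals from limma; filled points have an adjusted p under 0.05. Only Mmp2, at 0.63, and Timp4, at 0.86, are filled, and the intervals of Adam23, Adam1a, Adamts5 and Adamts8 also leave out 0 before adjustment.

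Among the ADAMTS proteases 0 of 14 passed (limma), with 2 (14.3%) at an unadjusted p under 0.05, against 20.8% of all genes. Those 2 were among the 10 at or above the median probe (20%), where 28.7% of all genes reached that p. Adamts5, an aggrecan-cutting enzyme, read 8.51, 7.45 and 9.67 in UCP1 and 7.13, 7.11 and 6.35 in control cells, with all UCP1 readings higher and a log2 difference of 0.31 ± 0.125 (SE, limma, adjusted p = 0.224). Adamts8 read 3.76, 2.82 and 3.64 in UCP1 and 4.64, 4.34 and 4.50 in control cells, with all UCP1 readings lower and a difference of -0.41 ± 0.136 (SE, limma, adjusted p = 0.134). Its dimmer probe lay on the other side, at 0.61, so the direction of Adamts8 was not settled, and the mean of its probes gave 0.10.

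The remaining ADAMTS genes at or above the median probe had overlapping groups. Adamts9, which cuts versican, read 50.8, 37.6 and 37.9 in UCP1 and 34.0, 41.1 and 40.5 in control cells. Adamts15 gave 10.9, 6.18 and 7.60 in UCP1 and 10.1, 9.02 and 9.58 in control cells. Without UCP1 1, which stood high, it fell by 0.48 on the log2 scale (limma, adjusted p = 0.0469), against a difference of -0.25 over all arrays. Adamts1, another versican-cutting enzyme, varied widely, at 1.59, 4.64 and 3.14 in UCP1 and 3.61, 2.78 and 1.91 in control cells. Its log2 difference of 0.09 turned to -0.26 without UCP1 2 and to -0.15 without control 3.

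Adamts14, which trims procollagen ends, read 7.27, 8.26 and 7.79 in UCP1 and 8.26, 7.79 and 7.47 in control cells, a log2 difference of -0.01 that turned to 0.10 after quantile normalization. Adamts7, which degrades cartilage oligomeric matrix protein, read 4.95, 4.49 and 3.94 in UCP1 and 4.70, 4.05 and 4.11 in control cells. Adamts10, a fibrillin-binding member, read 1.27, 1.06 and 1.35 in UCP1 and 1.46, 1.41 and 1.14 in control cells. The groups of all 3 ran into each other. Adamts16 read 1.29, 1.31 and 1.40 in UCP1 and 1.06, 1.00 and 1.40 in control cells. Adamts18 read 1.07, 0.884 and 1.32 in UCP1 and 1.34, 1.32 and 1.22 in control cells. Of the 4 dim members, Adamts19 and Adamts17 had the smallest p, with log2 differences of 0.67 and 0.41 (limma, adjusted p = 0.605 and 0.819).

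ADAMTS-like genes encode matrix proteins without a protease domain, and 0 of 4 passed (limma; 0 at an unadjusted p under 0.05). Adamtsl4, which binds fibrillin, read 15.9, 12.1 and 12.7 in UCP1 and 12.5, 11.6 and 10.9 in control cells, a log2 difference of 0.21. Adamtsl1 read 1.07, 1.08 and 0.901 in UCP1 and 1.15, 0.886 and 1.10 in control cells. The groups overlapped in both. Adamtsl2 and Adamtsl3 were dim, with log2 differences of -0.32 and 0.53 (limma, adjusted p = 0.619 and 0.742).

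By class, the median log2 difference was 0.04 for MMPs, 0.13 for TIMPs, 0.07 for ADAMs, 0.07 for ADAMTS and 0.09 for ADAMTS-like genes, each of which stayed positive after quantile and cyclic loess normalization. With 1 array left out the MMP median was negative in 4 of 6 cases, at -0.061 without UCP1 1, -0.091 without UCP1 2, -0.081 without control 1 and -0.055 without control 2. The ADAMTS-like median was -0.012 without UCP1 1 and -0.035 without control 2, and the TIMP median was 0.0094 without UCP1 1. Over the MMPs at or above the median probe alone it was -0.09, and with all probes of a gene averaged the ADAM median was -0.04. Groups that did not overlap were seen in 6 of 68 genes with UCP1 higher (8.82%, against 8.09% of all genes) and in 5 with UCP1 lower (7.35%, against 17.1% of all genes). Over both directions 25.2% of all genes did not overlap. Among the 34 members at or above the median probe, 2 rose and 0 fell, where 1.62% and 4.67% of all genes that bright did. The share that rose lay above its background on 2 genes only.

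**Figure D4:**
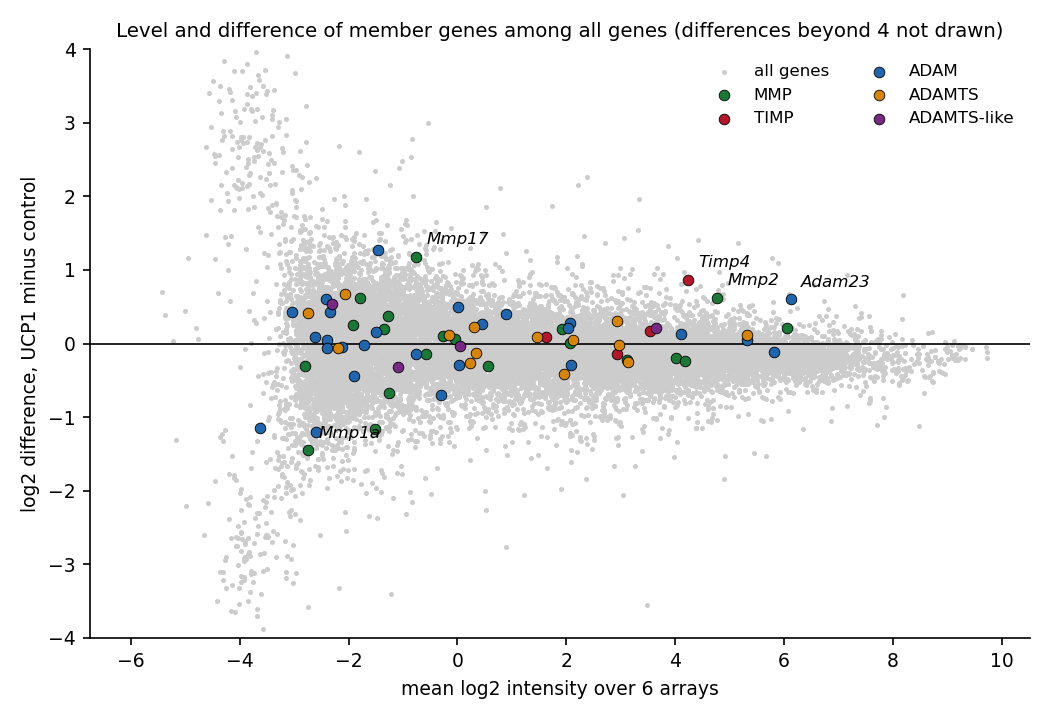
Mean log2 intensity over the 6 arrays (horizontal axis) against the log2 difference of UCP1 minus Tet-off control (vertical axis) for all genes (grey) and the 68 member genes (coloured by class); differences beyond 4 on the log2 scale are not drawn. Timp4, Mmp2 and Adam23 lie at the upper edge of the cloud at their brightness, while the wide differences at the left belong to dim probes.

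Genes around these proteases were taken from 6 lists. For the calls below, 1.13% of all genes rose and 2.92% fell (limma), and 1.62% and 4.67% of those at or above the median probe. Without the intensity trend none of the calls named from these lists passed (limma, where 4951 probes had an unadjusted p under 0.05). Beside -0.08 over all genes, the median log2 difference was 0.10 for MMP activation and inhibition partners, -0.04 for the plasminogen system, -0.11 for other matrix proteases, 0.03 for matrix substrates, -0.06 for ADAM partners and shed substrates, and 0.06 for growth factors and other regulators. At an unadjusted p under 0.05 (limma) were 6 of 17 MMP partners (35.3%), 1 higher and 5 lower. Of 31 matrix substrates 10 were (32.3%), 5 each way. The shares were 18.2% in the plasminogen system, 19.2% of other matrix proteases and 17.6% of ADAM partners and shed substrates. Of all genes 20.8% were, and 28.7% of those at or above the median probe. Among partners that activate, induce or restrain MMPs, 0 of 17 rose and 1 fell. That gene was Bsg, the membrane protein basigin, also called extracellular matrix metalloproteinase inducer. Bsg read 289.8, 204 and 236 in UCP1 and 529, 420.4 and 638 in control cells, and every UCP1 array was lower. It fell 2.17-fold, a log2 difference of -1.12 ± 0.223 (SE, limma, adjusted p = 0.024), and its second probe fell by 1.51. The call was lost after quantile normalization (-0.77, limma, adjusted p = 0.0986) and without UCP1 3, control 1 or control 3, where it fell by 1.10, 1.10 and 0.97. In the plasminogen system 1 of 11 measured genes rose, Klkb1, the precursor of plasma kallikrein, by 1.53 from a dim reading (limma, adjusted p = 0.00516), and without UCP1 3 the value was 1.51 without passing.

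Of 26 other matrix proteases 2 rose and 0 fell. Bmp1, the procollagen C-proteinase, read 16.2, 15.7 and 13.5 in UCP1 and 10.8, 10.7 and 11.3 in control cells, with all UCP1 readings higher. It rose by 0.47 ± 0.112 in log2 units (SE, limma, adjusted p = 0.0489). The call was lost with 1 array left out in 5 of 6 cases (all but UCP1 1), where values ran from 0.44 to 0.55, and in the fit on the mean of all probes per gene (limma, adjusted p = 0.055). Prss23, a secreted serine protease, rose by 0.58 ± 0.113 (SE, limma, adjusted p = 0.0219), but its dimmer probe lay at -0.23, and the call was lost without UCP1 3, control 2 or control 3, at 0.59, 0.54 and 0.56. With the mean of its probes it was 0.18.

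Among 31 measured matrix substrates 3 rose (9.68%) and 1 fell (3.23%). Of the 31, 28 were at or above the median probe, where 1.62% of all genes rose and 4.67% fell (limma). Nid2, a nidogen that links laminin and collagen in basement membranes, read 22.3, 16.5 and 16.5 in UCP1 and 10.1, 9.16 and 7.64 in control cells, and rose 2.05-fold (limma, adjusted p = 0.00527). The small proteoglycans decorin (Dcn) and lumican (Lum), which coat collagen fibrils, rose 1.73-fold and 1.87-fold (limma, adjusted p = 0.0234 and 0.0286). Dcn missed with any 1 control array left out, at 0.89, 0.79 and 0.70 on the log2 scale, and Lum without UCP1 3, control 2 or control 3, at 0.95, 0.83 and 0.81. Comp, cartilage oligomeric matrix protein, read 2.29, 2.85 and 2.71 in UCP1 and 4.09, 5.03 and 4.64 in control cells, and fell 1.76-fold (limma, adjusted p = 0.0107). Its dimmer probe lay at -0.10, and its call was lost with the mean of both probes (-0.45) and without UCP1 3 (-0.84) or control 2 (-0.74).

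Among 34 measured ADAM partners and shed substrates 0 rose and 1 fell, Sdc4, a membrane proteoglycan whose outer part is shed. It read 2.79, 3.07 and 2.98 in UCP1 and 7.77, 4.96 and 5.65 in control cells, and fell 2.05-fold (limma, adjusted p = 0.00727), a call lost without UCP1 3 (-1.04). Of 22 growth factor and cytokine regulators 0 passed (limma). At an unadjusted p under 0.05 there were 5 (22.7%), near the 20.8% of all genes. The smallest p belonged to Tgfb3 and Ccl2, with log2 differences of 0.52 and 0.46 (limma, adjusted p = 0.0522 and 0.0689), and both passed after quantile normalization, at 0.65 and 0.55. With the mean of its probes Tgfb3 was 0.20 (limma, adjusted p = 0.529).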

How the data were processed

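The intensities, as the authors deposited them, are linear readings of 1-colour arrays with array medians near 1. No label or header names the scanner software, the background correction or how the scaling was done. The code -9999 was treated as missing, and readings at or below 0 took the lowest positive reading on the same array before log2. A probe was tested with at least 2 values per group, which left 36116 of 36227 probes. Groups came from the source field of the labels. The 3 UCP1 and 3 control arrays were tested with limma 3.58.1 under R 4.3.3 (lmFit, eBayes with an intensity trend), after a test on simulated arrays with known changes. The number of arrays limits the precision.

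Symbols came from the platform annotation, and all 68 measured members matched RefSeq by gene identifier. The members, lists and naming rule were chosen with earlier results of these data known. The rule named called members, members at or above the median probe, the 2 of each class below it with the smallest p, and up to 4 called genes per list or the 2 with the smallest p. The synapsins and the within-array contrasts were added after values were seen. Alternatives were an offset of 0.171 before log2, quantile and cyclic loess normalization, brighter probes only, eBayes without trend or robust, the replicate number as a block, the mean of all probes per gene, and each array left out.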

Additional observations from a re-analysis of the deposited data

How the results depend on the processing

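Directions of Mmp2, Timp4 and Adam23 held under all 14 alternatives. Their groups did not overlap, so only quantile and cyclic loess normalization could have turned a sign, and the other settings do not test direction. Mmp2 and Timp4 stayed past the threshold in 9 and 13 of the 14. Without the intensity trend 0 probes rose or fell and 0 members passed (limma), although 4951 probes and 6 members (4 higher, 2 lower) had an unadjusted p under 0.05. Calls over all probes numbered 567 higher and 446 lower after quantile normalization, 517 and 460 after cyclic loess, and 523 and 1716 on brighter probes only. The ADAMTS median was 0.12 after quantile normalization, 0.11 after cyclic loess and 0.020 on brighter probes only, and the ADAM median was 0.17 on brighter probes only and -0.042 with the mean of all probes per gene. With 1 array left out, 66 to 395 probes rose and 93 to 1610 fell, 1 to 3 members rose and 0 to 1 fell, the ADAM median ran from -0.0095 to 0.16 and the ADAMTS median from -0.0085 to 0.12. Without UCP1 3 the counts over all probes were lowest, at 66 and 93.

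Uncalled members that changed sign by more than their SE were Adam15 (0.073 after quantile and 0.069 after cyclic loess normalization), Adamts14 (0.10 after quantile normalization), and Adam10 (-0.33), Adam33 (-0.069) and Adamts8 (0.10) with the mean of all probes. With 1 array left out, Adam10 ran from -0.15 to 0.21, Adam21 from -2.06 to 0.58, Mmp24 from -0.47 to 1.29, Adamts1 from -0.26 to 0.51, Adam29 from -0.56 to 0.99 and Mmp11 from -0.33 to 0.048. The cause was not tested. Deviations of arrays with the same number from their group means correlated at r = -0.24, -0.01 and 0.10 over brighter probes. Those of arrays with different numbers ran from -0.36 to 0.35. With 3 arrays per group these values cannot show whether the numbers pair the arrays. With the replicate number as a block 225 probes rose and 551 fell, and 2 members rose and 0 fell. In that fit Bmp1, Lum and Thy1 did not pass (limma, adjusted p = 0.0748, 0.0508 and 0.0575).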
